A study of Mus musculus with 4 samples.

Results

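Cbx3 encodes HP1γ, a member of the heterochromatin protein 1 family that recognises methylated histone tails, and the mutant allele studied here was made by a modified gene trap. A gene trap places a splice acceptor and a reporter or selection cassette inside a gene, so that transcription starts normally and the transcript is diverted or ended early. Inserted sequence can also alter transcripts of genes nearby, which is why the neighbours of a trapped gene are read as a check on local effects. Described here are 10 genes chosen for their position near Cbx3 on mouse chromosome 6, namely Hnrnpa2b1, Nfe2l3, Snx10, Skap2, Osbpl3, Cycs, Tra2a, Ccdc126, Tax1bp1 and Hibadh, out of 18322 named genes with a value on every array. They are measured by 18 probes, all of which were found by matching their accessions to RefSeq names. Of these, 16 probes covering all 10 genes exceeded background in both pools of 1 or both genotypes and were tested. Each of the 16 was in fact well above background on all 4 arrays, so none was tested through the genotype in which it was bright.

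The samples were wild-type and HP1g-/- embryos at embryonic day 11.5, all carrying a Blimp1-mVenus transgene that marks primordial germ cells, the precursors of eggs and sperm. Fluorescent cells were sorted from genital ridges, and RNA from 5 or 6 embryos was pooled for each array, with 2 pools of each genotype. Both null pools carry the same trap allele, and the reporter labels any cell in which Blimp1 (Prdm1) is active. Levels below are given on a log2 scale on which each array's 75th percentile is 0, and a difference is the null mean minus the wild-type mean on that scale. With 2 arrays against 2, an exact permutation test cannot give a two-sided p below 0.333, so p-values come from a limma fit across all 22440 tested probes.

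The pools differed in the cell type markers they carried. The 75th percentile of the signal was 125 to 291 intensity units, and 53.3% to 63.3% of spots were well above background. Of 16 germ cell markers 11 were tested. In null replicate 2, 8 of these, Dppa3, Ddx4, Dazl and Pou5f1 among them, failed to stand well above background. Those 8 passed the filter only through the wild-type pools, so their standing above background there was fixed in advance. All 11 also stood well above background in null replicate 1, which the filter did not require of those 8. The other 3, Dnd1, Ifitm3 and Prdm1, were well above background on all 4 arrays. The summed level of the 11 tested markers, those 8 included, was 3.64 and 2.80 in wild type and 5.09 and 2.37 in null replicates 1 and 2. For 11 stromal genes it was 4.70, 3.46, 3.68 and 6.48 on the same arrays, and for 11 of 12 leukocyte genes 8.30, 8.51, 8.33 and 8.06. For 6 of 12 gonadal soma genes the sums were 2.33, 1.92, 2.82 and 3.48. These sums include Wnt4, which passed the filter only through the null pools, in which it was brighter, so they are not read as a difference. Of the 5 gonadal soma genes measured on all arrays 5 were higher in the null pools, 4 without overlap (median difference 1.00). For 14 endothelial genes the sums were 8.68, 8.82, 7.89 and 8.23, without overlap between genotypes. All 14 were lower in the null pools, 13 without overlap (median -0.67). Of all tested probes 38.2% did not overlap in either direction and 23.0% were lower in the null pools without overlap. At an unadjusted limma p under 0.05 were 7 of these 14 genes and 2 of those 5 gonadal soma genes, against 7.51% of all tested probes. No gene of these lists was called, where 0.00891% of all tested probes were. The part of these genes in the levels below was not tested. The label of null replicate 2 as germ cells is not borne out by the 8 markers that failed there, while the other 3 stayed well above background. The difference of each flanking gene is also given without that pool.

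Hnrnpa2b1 and Cbx3 lie head to head: they are adjacent and are read in opposite directions from a shared stretch of DNA. Their facing RefSeq promoter windows (assembly GRCm38.p6, 250 bases before to 50 after a listed start) are shown because the signal of one gene was lost in the null pools and that of the other was not. The windows lie 221 bases apart, Hnrnpa2b1 at chr6:51469845-51470144 on the minus strand and Cbx3 at chr6:51470366-51470665 on the plus strand. Capitals mark CpG dinucleotides.
Hnrnpa2b1: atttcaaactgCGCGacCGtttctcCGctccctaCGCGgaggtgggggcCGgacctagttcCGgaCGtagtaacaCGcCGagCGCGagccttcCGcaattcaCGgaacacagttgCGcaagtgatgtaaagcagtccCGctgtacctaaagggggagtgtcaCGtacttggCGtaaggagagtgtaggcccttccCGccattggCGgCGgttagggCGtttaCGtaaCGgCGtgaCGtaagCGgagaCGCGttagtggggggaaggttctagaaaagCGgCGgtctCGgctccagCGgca
Cbx3: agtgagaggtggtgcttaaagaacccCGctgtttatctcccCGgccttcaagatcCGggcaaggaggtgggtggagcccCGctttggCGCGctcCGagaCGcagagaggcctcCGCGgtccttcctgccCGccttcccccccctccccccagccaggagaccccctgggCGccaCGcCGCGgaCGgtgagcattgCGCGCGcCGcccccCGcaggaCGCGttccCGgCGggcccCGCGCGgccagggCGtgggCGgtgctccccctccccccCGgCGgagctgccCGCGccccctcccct
Each window held 34 CpG dinucleotides, a number reached by 7.73% of the 32851 promoter windows in the table, whose median was 7. G and C made up 60.0% of the Hnrnpa2b1 window and 75.3% of the Cbx3 window. The motif GGGCGG, searched on both strands, occurred 2 times in the Cbx3 window and was not found in the Hnrnpa2b1 window, while CCAAT occurred 1 time in the Hnrnpa2b1 window and not in that of Cbx3. These motifs occur in 35.7% and 37.4% of all windows. Over the 14 windows of the 10 flanking genes the CpG count ran from 7 (Nfe2l3) to 40 (Snx10), with a median of 26.5. A match of letters is a description and does not show that a factor binds.

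None of the 10 flanking genes rose or fell past the threshold in the null pools, whereas Cbx3 was reduced to about 1% of wild type or less. The brighter Cbx3 probe stood at 5.89 and 5.72 in wild type but at -1.24 and -2.78 in the nulls, leaving 0.444% of the wild-type level, the largest fall among all tested probes (limma adjusted p = 0.099). Its difference was -7.82, and -7.05 on leaving out null replicate 2. The dimmer probe, at 4.80 and 5.07 against -1.95 and -1.59, left 0.961% and passed (adjusted p = 0.044), though it no longer passed without any 1 of the 4 arrays (adjusted p = 0.068 to 0.20) or with dim probes kept in the fit (0.376). The flanking genes ran from a difference of -0.75 for Ccdc126 to 0.05 for Hibadh by the brightest probe of each gene. In the fit 0 of 10 genes and 0 of 16 probes were called, where 0.00891% of all tested probes were, and the adjusted p of the 16 probes lay between 0.590 and 0.998. At an unadjusted p under 0.05 there was 1 probe of 16, against 7.51% of all probes.

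**Figure D1:**
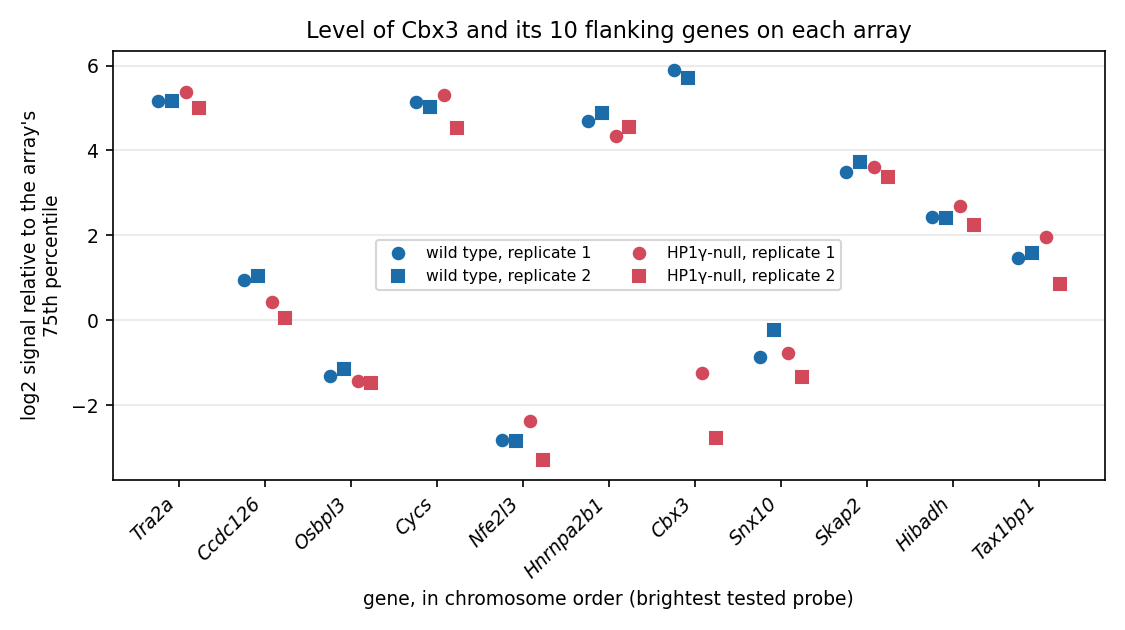
Log2 signal relative to each array's 75th percentile (vertical axis) for Cbx3 and its 10 flanking genes in chromosome order, by the brightest tested probe; blue symbols are wild-type pools and red symbols HP1γ-null pools, circles replicate 1 and squares replicate 2. Cbx3 drops from 5.89 and 5.72 to -1.24 and -2.78, while the points of each flanking gene span at most 1.12; heights of different genes are not comparable because their probes differ.

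Among the flanking genes the null mean was below wild type for 7 and above it for 3. The median difference was -0.14, against -0.02 over the 12130 named genes, each likewise read by its brightest tested probe. Over the 16 probes the median was -0.19, against -0.06 over all tested probes. The standard errors were 0.20 to 0.42. The 95% intervals of all 10 genes lay within a 4-fold change either way and those of 6 genes within a 2-fold change, so smaller changes were not resolved by this number of arrays. Between genotypes 3 of the 10 genes did not overlap, Hnrnpa2b1, Osbpl3 and Ccdc126, each lower in the null pools. Of all tested probes 38.2% did not overlap in either direction and 23.0% were lower without overlap. None of the 10 genes was at least 2-fold apart without overlap, as 4.99% of all probes were.

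**Figure D2:**
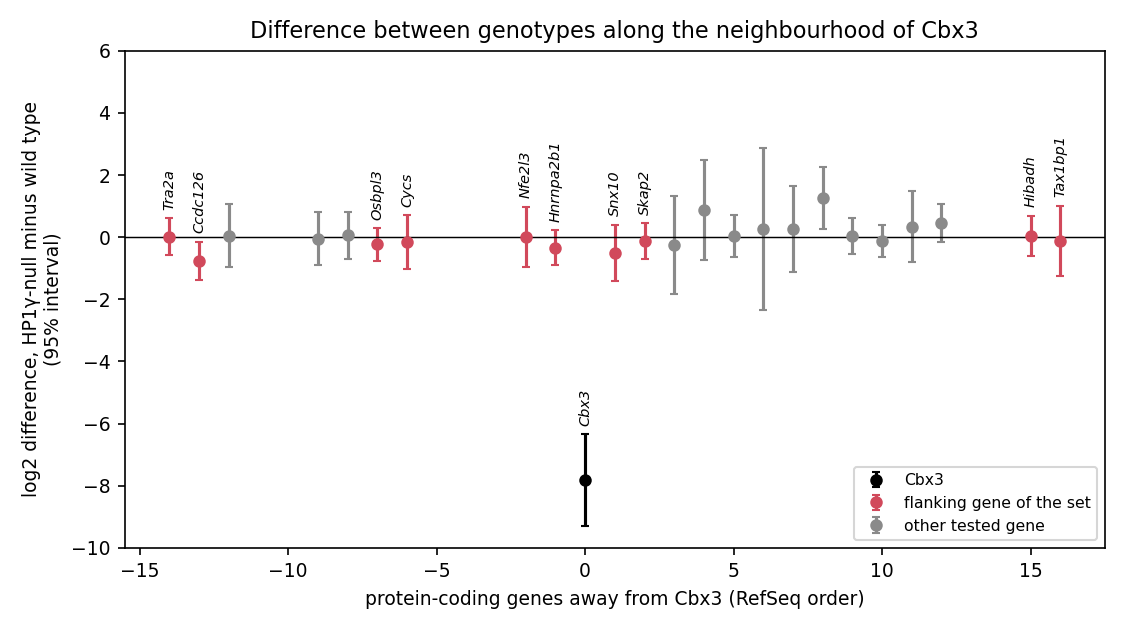
Difference between genotypes (null minus wild type, log2, with 95% intervals from limma) for each tested protein-coding gene between Tra2a and Tax1bp1, placed by the number of protein-coding genes from Cbx3. Cbx3 stands at -7.82, and the 10 flanking genes (red) lie between -0.75 and 0.05.

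Hnrnpa2b1, the immediate neighbour, encodes an RNA-binding protein that takes part in splicing and in RNA transport. Its probe read 4.69 and 4.87 in wild type against 4.33 and 4.55 in null replicates 1 and 2. Both null arrays were below both wild-type arrays, with the gap between the nearest values smaller than the spread within either genotype. The difference was -0.34 with SE 0.21, so that the null pools held 79.0% of the wild-type level, with a 95% interval from 53.3% to 117% (limma adjusted p = 0.81). A difference at least this large in either direction was seen for 33.2% of all tested probes. Leaving out null replicate 2 gave -0.45, and leaving out null replicate 1 gave -0.23. Unlike the other 9 genes, Hnrnpa2b1 was lowest in null replicate 1. Patterns over the 4 arrays were compared with it for named genes outside the interval, once each gene's own mean was removed. Provisional names, such as those of the Gm, LOC and Rik type, were passed over. The most alike of the rest were Cerk, Galc and Adgre5, with root mean square differences of 0.017, 0.018 and 0.018 on the log2 scale. With 4 arrays such likeness carries little information.

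Tra2a, the most distant gene on the Hnrnpa2b1 side, encodes a splicing factor of the transformer type. Its bright probe read 5.17 on both wild-type arrays, and 5.37 and 5.01 in null replicates 1 and 2, so that the null arrays lay on either side of wild type. The difference was 0.02 with SE 0.22, and the 95% interval ran from 67.0% to 154% of the wild-type level (adjusted p = 0.99 by limma). Leaving out null replicate 2 gave 0.20, and leaving out null replicate 1 gave -0.16. A dimmer probe read -0.58, -0.39, -0.45 and -1.32, a difference of -0.39 that came from null replicate 2 alone and was 0.04 without it. Both probes were lowest in null replicate 2, at -0.16 and -0.83 against the wild-type mean, so there they differed in size and not in direction.

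The related RNA-binding genes elsewhere in the genome were read for comparison. Of 14 hnRNP genes tested, 4 were higher and 10 lower, the median being -0.06, and none was called. Hnrnpa1, a close relative of Hnrnpa2b1, read 6.33 and 6.27 in wild type against 6.55 and 6.16 in the nulls. Hnrnpm had the smallest unadjusted p of that list and differed by -0.18 (limma adjusted p = 0.91). Of 10 tested genes among Tra2b and the SR splicing factors, 3 were higher and 7 lower (median -0.15). Tra2b, the paralog of Tra2a, read 2.62 and 2.60 against 2.48 and 2.29, and Srsf5 differed by -0.49 (adjusted p = 0.87 and 0.83). Null replicate 2 was the lowest array for 11 of the 14 hnRNP genes and 7 of these 10 splicing genes.

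Nfe2l3, next after Hnrnpa2b1, encodes a transcription factor of the cap'n'collar leucine zipper family, which also includes the oxidative stress regulator Nfe2l2. It was measured near the lower end of the range, with 26.4 and 30.2 intensity units in wild type against 24.1 and 29.5 in the nulls. Its relative levels were -2.83, -2.86, -2.37 and -3.30, so null replicate 1 was above and null replicate 2 below a tight pair of wild-type arrays. The difference was 0.01 with SE 0.36, and it was 0.47 without null replicate 2 but -0.46 when replicate 1 was the one left out. A second probe did not stand well above background on any of the 4 arrays and was not tested. Among 9 related genes of this family and its partners, 3 were higher and 6 lower (median -0.16), and none was called. Nfe2l2 differed by -0.34 (limma adjusted p = 0.82). Nfe2, an erythroid member, read -1.13 and -1.01 against -0.29 and -0.44, a difference of 0.71 (limma adjusted p = 0.56).

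Snx10, the first gene on the other side of Cbx3, encodes a sorting nexin of endosomal membranes known for its role in osteoclasts. It read -0.87 and -0.24 in wild type against -0.78 and -1.34 in the nulls. The groups overlapped, since null replicate 1 lay between the wild-type arrays. The difference of -0.51 with SE 0.34 corresponds to 70.4% of wild type, with a 95% interval from 37.5% to 132% (limma adjusted p = 0.82). It was -0.22 without null replicate 2 and -0.79 without the first, and leaving out wild-type replicates 1 and 2 in turn gave -0.82 and -0.19. Of 9 other sorting nexins well above background on all 4 arrays, 1 was higher and 8 lower (median -0.15). Snx9 had the smallest unadjusted p, at -1.43 and -1.23 against -1.84 and -1.79 (adjusted p = 0.69). Snx11 failed to stand well above background in wild-type replicate 1 and read -2.89 in the other wild-type pool and -3.11 and -2.77 in the nulls.

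Skap2, beyond Snx10, encodes an adaptor of Src-family kinases that is prominent in leukocytes. It was among the steadiest of the set, with 3.50 and 3.72 in wild type against 3.61 and 3.38 in the nulls. The difference was -0.12 with SE 0.22, or 92.1% of wild type with a 95% interval from 61.6% to 137% (limma adjusted p = 0.95). Leaving out null replicates 1 and 2 in turn gave -0.23 and -0.0055, and leaving out wild-type replicates 1 and 2 gave -0.23 and -0.0094. Leukocyte markers were also bright in every pool, as given above, and their part in the Skap2 signal was not tested. Of 7 tested adaptor and kinase genes linked to the same pathway 3 were higher and 4 lower (median -0.25), and none was called. Ptk2b had the smallest unadjusted p, with a difference of 0.54 (adjusted p = 0.79). The close relative Skap1 was not tested.

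Osbpl3 encodes a lipid-binding protein of the oxysterol-binding family. It read -1.32 and -1.14 in wild type against -1.44 and -1.47 in the nulls, so all 4 arrays lay within 0.33 of one another although the genotypes did not overlap. The difference of -0.23 with SE 0.20 corresponds to 85.4% of wild type, with a 95% interval from 59.2% to 123% (limma adjusted p = 0.87). It was -0.21 on leaving out null replicate 2. A second probe, matched to another Osbpl3 transcript accession, was well above background only in wild-type replicate 1 and was not tested. Of 8 tested relatives 3 were higher and 5 lower (median -0.14). Osbpl10 had the smallest unadjusted p, at -0.01 and -0.22 against -0.60 and -0.69 (adjusted p = 0.67), and Osbpl6 was not tested.

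Tax1bp1, the outermost gene beyond the Hoxa cluster, encodes an autophagy receptor that also restrains inflammatory signalling with A20. Its 3 probes disagreed on null replicate 2. The brightest read 1.47 and 1.59 for wild type, then 1.97 and 0.84 for the nulls in replicate order, a spread of 1.12 that was the widest of the set. The difference by that probe was -0.12 with SE 0.42, turning to 0.44 without null replicate 2 but -0.69 when replicate 1 was the one left out. The other 2 probes were almost level, at 1.05, 0.98, 1.20 and 1.15 and at 0.32, 0.46, 0.53 and 0.40 on the same arrays, with differences of 0.16 and 0.07. Of 7 tested partners and autophagy receptors 3 were higher and 4 lower (median -0.09), and none was called. Calcoco1 had the smallest unadjusted p and differed by 0.69 (limma adjusted p = 0.61), and Calcoco2 was not tested.

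Cycs encodes cytochrome c, which carries electrons in mitochondrial respiration and triggers apoptosis when released into the cytosol. Its 3 probes gave differences of -0.16, -0.25 and -0.23 with SE 0.33, 0.24 and 0.21 (limma adjusted p = 0.96, 0.88 and 0.88). By the brightest probe the arrays read 5.14 and 5.01 for wild type, then 5.31 and 4.52 for the nulls in replicate order. Null replicate 2 was the lowest array by each of the 3 probes, and without it the differences were 0.23, -0.04 and -0.09. Cytochrome c has processed pseudogenes, and whether they contribute to the probe signals was not tested. Of 11 genes of the respiratory chain and the apoptosome 3 were higher and 8 lower (median -0.01), and none was called. Apaf1, the apoptosome scaffold, read -0.44 and -0.26 against -0.95 and -0.80, a difference of -0.53 (adjusted p = 0.68). Cyct, the germ cell form of cytochrome c, read 0.09 and -1.15 for wild type, then 3.07 and -2.90 for the nulls in replicate order, and differed by 0.61 (adjusted p = 0.98).

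Hibadh encodes a mitochondrial dehydrogenase of valine breakdown. It read 2.42 on both wild-type arrays and 2.70 and 2.25 in null replicates 1 and 2. The difference was 0.05 with SE 0.24, or 104% of wild type with a 95% interval from 66.2% to 162% (limma adjusted p = 0.99). It was 0.27 without null replicate 2 but -0.17 when replicate 1 was the one left out. Of 9 other genes of the pathway 3 were higher and 6 lower (median -0.09). The next enzyme upstream, Hibch, differed by -0.06 (limma adjusted p = 0.98), and Bckdha, with the smallest unadjusted p, differed by 0.24 (adjusted p = 0.86).

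Ccdc126 encodes a coiled-coil domain protein and showed the largest difference of the 10 genes. Its bright probe read 0.95 and 1.04 in wild type and 0.43 and 0.05 in null replicates 1 and 2. Both null arrays lay clearly below both wild-type arrays. The difference was -0.75 with SE 0.23, leaving 59.3% of wild type with a 95% interval from 38.9% to 90.6%, the interval of 1 gene in 10 that did not include equality. It did not pass the threshold over all probes (unadjusted p = 0.026, limma adjusted p = 0.59), and 9.84% of all tested probes differed at least as much. The difference was -0.57 without null replicate 2 but -0.94 when replicate 1 was the one left out. A dim second probe read -2.83 and -2.46 against -2.45 and -3.36, where the genotypes overlapped and the difference was -0.26. Ccdc126 lies 13 protein-coding genes from Cbx3, beside Tra2a. By the brightest probe of each gene the next largest differences were those of Snx10 (-0.51, genotypes overlapping) and Hnrnpa2b1 (-0.34), on either side of Cbx3. Differences at least as large were seen for 19.3% and 33.2% of all tested probes. The dimmer probe of Tra2a, which lies 14 protein-coding genes from Cbx3, differed by -0.39.

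**Figure D3:**
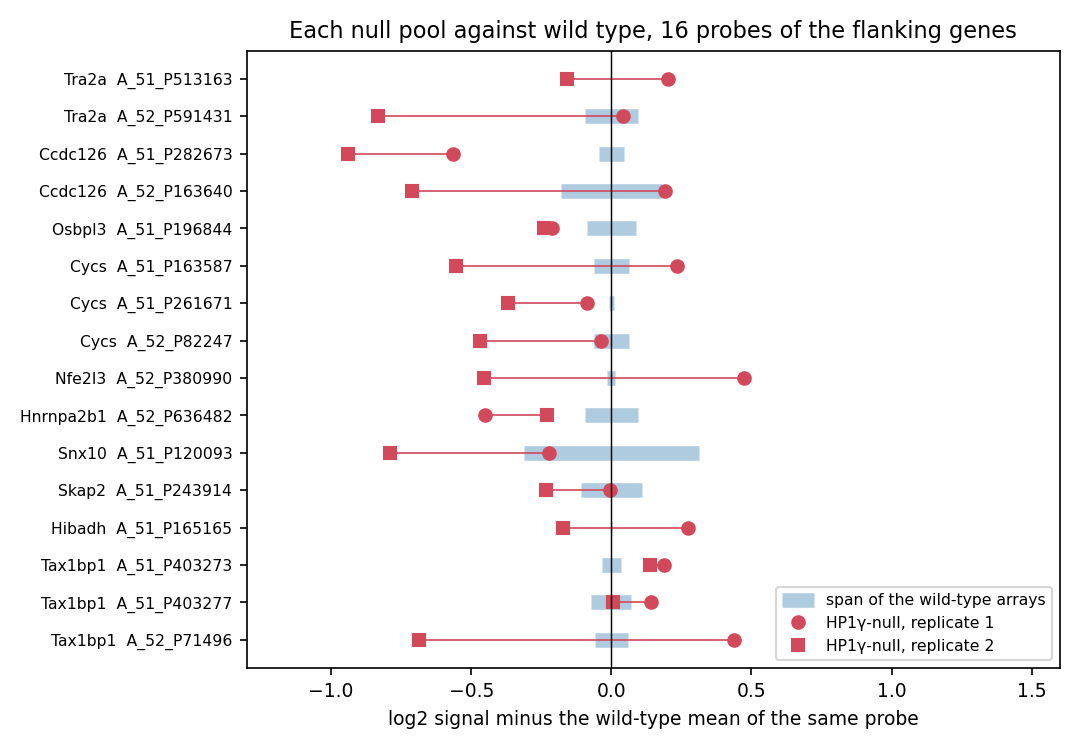
Log2 signal of each null pool minus the wild-type mean of the same probe (horizontal axis) for the 16 tested probes of the flanking genes in chromosome order; red circles are null replicate 1, red squares null replicate 2, and blue bars span the wild-type arrays (those of the bright Tra2a probe and of Hibadh are too narrow to see). The square lies left of the circle for 15 of 16 probes, Hnrnpa2b1 being the exception.

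Null replicate 2 was the lowest of the 4 arrays for 9 of the 10 genes and 13 of the 16 probes, while it was the lowest for 39.5% of all tested probes. It was below null replicate 1 for 15 of the 16 probes, as it was for 54.6% of all probes. Against the wild-type mean the median of the 10 genes was 0.10 in null replicate 1 and -0.35 in null replicate 2. Over the named genes, likewise read by their brightest probe, these medians were 0.01 and -0.06, and over all tested probes -0.02 and -0.10. For the 10 genes the replicates were a median of 0.12 apart in wild type but 0.41 apart in the nulls. Their genotype means were a median of 0.14 apart. Over all tested probes these medians were 0.16, 0.42 and 0.22, and over the named genes 0.15, 0.38 and 0.20. The sign of the set's median difference thus rested on null replicate 2. The summed germ cell markers were lowest in that pool, as were 10 of the 11 genes taken singly. Of the 11, 8 passed the filter only through the wild-type pools, so that sum and count are not read as a difference. Of the 3 measured on all arrays, Ifitm3 was the exception, while Dnd1 and Prdm1 were lowest in null replicate 2. The summed stromal markers were highest there, though Postn was higher in null replicate 1 (1.94 against -1.96). The part of these markers in the levels was not tested. In bulk samples fewer cells of a type and less RNA per cell cannot be told apart.

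**Figure D4:**
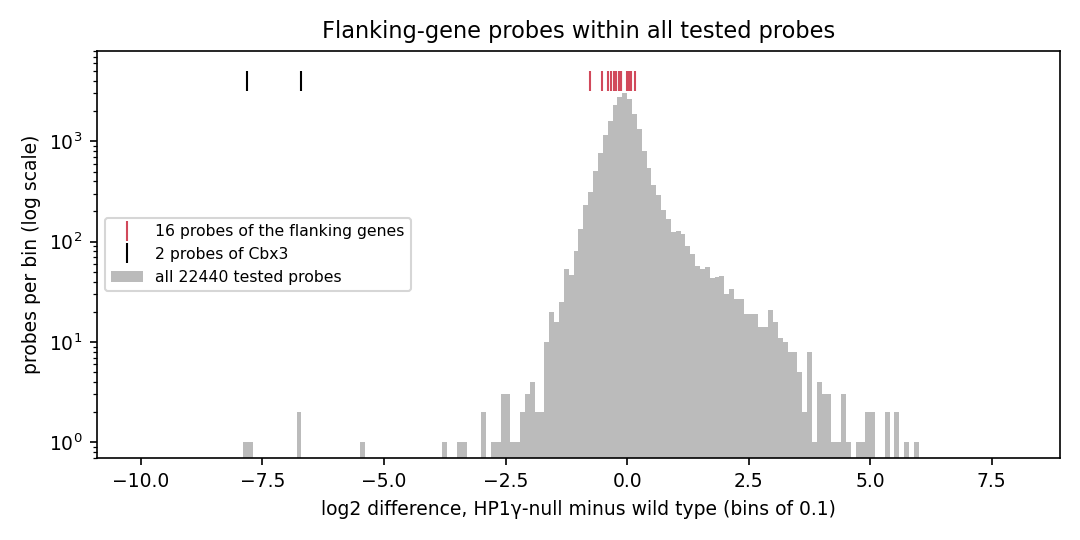
Number of probes (log scale) by log2 difference between genotypes in bins of 0.1 for all 22440 tested probes, with the 16 probes of the flanking genes (red ticks) and the 2 probes of Cbx3 (black ticks) marked above. The flanking genes lie between -0.75 and 0.16 in the bulk of the distribution, and Cbx3 at -7.82 and -6.70 lies at its lower end.

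The stretch from Tra2a to Tax1bp1 holds 31 protein-coding genes in RefSeq order. Besides the 10 genes and Cbx3, 13 further genes of it were tested, and none was called. Hoxa6 was tested only through the null pools, in which it was brighter, and is left out of the counts here. Of the other 12 genes, well above background on all 4 arrays, 9 were higher and 3 lower, the median was 0.06 and none had an unadjusted p under 0.05. Between Ccdc126 and Osbpl3, Fam221a, Mpp6 and Gsdme differed by 0.05, -0.04 and 0.06. The remaining 9 belong to the Hoxa cluster, the patterning genes between Skap2 and Hibadh, of which 7 were higher and 2 lower (median 0.26). Hoxa6 did not stand well above background on the wild-type arrays, so its level there was not measured and no fold change is given. It read -3.29 and -2.35 in null replicates 1 and 2 and was not called (adjusted p = 0.58 by limma). Because only the brighter genotype brought Hoxa6 into the test, this result is not read as a difference. Hoxa11 read -2.27 and -2.61 against -1.92 and -2.04 (adjusted p = 0.75). Hoxa2 read -3.33 and -3.32 in wild type but -3.30 and -1.61 in the null pools, its difference of 0.87 coming from null replicate 2, and Hoxa10 differed by 0.34 (adjusted p = 0.83 and 0.92).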

How the data were processed

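Per the file headers, the deposited intensity values were extracted by Agilent Feature Extraction 10.7.3.1, with background subtracted and spatial trends removed within each array. The arrays' percentiles differ, so they were not scaled to each other. Per the labels' protocols, Cy3-labelled RNA was amplified from 4 ng per pool. All arrays were on 1 slide and scanned once. The authors' deposited value table repeats the processed signal, differing by at most 0.50%, with column medians of 20.6, 22.6, 14.5 and 33.4, so it is linear, uncentred and unscaled.

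Computed here were log2 values minus each array's 75th percentile over 43379 spots that are not controls. Spots marked as outliers (83 to 104 per array) were left out, spots of a probe averaged, and saturated spots kept. Of 41174 probes, 26888 were named by accession through RefSeq (GRCm38.p6), and unnamed probes of these genes, if any, were not used. The array was designed on mm9, so no probe was placed by the RefSeq gene coordinates, which served for gene order. The promoter windows, and the distance between them, use GRCm38.p6 coordinates of their own. Tested were 22440 probes that exceeded background in both pools of 1 or both genotypes, with limma 3.58.1 in R 4.3.3 (no covariate, two-sided tests, adjusted by Benjamini-Hochberg across the 22440, threshold 0.05). Python 3.11.15 and pandas 2.3.3 did the rest. The script was checked on data made with known differences.

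A gene was read by its probe with the highest mean, and every probe of the 10 genes and Cbx3 is named. Named besides are the 4 other genes of the interval with the smallest unadjusted p. In each list of relatives the first gene and the one with the smallest unadjusted p are named. The 3 genes most like Hnrnpa2b1 are named too, with provisional gene names passed over. Further named genes (Fam221a, Mpp6, Gsdme) complete a count. A list of erythroid markers was also read (4 of 8 tested, 3 of them measured on all arrays with a median difference of -0.15). The genes and lists were chosen with earlier results of these data known. Alternatives were other scalings, background correction, filter, variance model, the value table, a replicate block and each array left out. The normexp alternative used median spot signals.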

Additional observations from a re-analysis of the deposited data

How the results depend on the processing

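No flanking gene and no other gene of the interval was called by limma under any of the 12 alternatives run. The difference of Hnrnpa2b1 ran from -0.89 to -0.23 over them. Its sign could not turn when 1 array was left out, because its genotypes did not overlap. Keeping dim probes, the variance trend and the replicate block cannot change the difference itself. Scaling to the spiked-in control probes shifted the median over all probes (-0.06 to -0.61) and with it the median of the 10 genes to -0.69, with 2 genes at least 2-fold lower without overlap. This scaling subtracts 1 value per array, so relative to the median over all probes the median of the 10 genes was bound to stay at -0.08. With 1 array left out the median of the 10 genes ran from -0.35 to 0.10, positive only without null replicate 2, and the adjusted p of the 10 genes was at least 0.12. Under the same spiked-in scaling Nfe2l3, Tra2a and Hibadh turned to -0.54, -0.53 and -0.50. Nfe2l3 turned to -0.051 with quantile normalization and -0.029 with normexp, and Tra2a to -0.0055 with normexp. With 1 array left out Nfe2l3 ran from -0.46 to 0.47, Snx10 from -0.82 to -0.19, Skap2 from -0.23 to -0.0055, Cycs from -0.55 to 0.23, Tra2a from -0.16 to 0.20, Tax1bp1 from -0.69 to 0.44 and Hibadh from -0.17 to 0.27. The bright Cbx3 probe passed at -8.36 with spiked-in scaling, -6.60 with normexp, and -7.82 with a variance trend or with the replicate block. Its range with 1 array left out was -8.59 to -7.05. The replicate numbers are not stated to pair the pools, and same-numbered arrays deviated together only weakly (r = 0.066 across probes). The replicate block called 13 probes, where 2 were called without it, with no flanking gene called. It cannot move the difference of Hnrnpa2b1 from -0.34. Spiked-in scaling called 146 probes, quantile normalization 3, and a variance trend 7, while the fit with dim probes kept called 0 (1474 at an unadjusted p under 0.05), as did each fit without 1 array (607 to 5644 at that p). Counts are limited by 2 pools per genotype, and Nfe2l3 lay near background. Averaging all tested probes of a gene could not change Hnrnpa2b1, which has 1 probe.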
